A study of Mus musculus with 12 samples.

Results

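The genes described here encode the histones, the proteins that package DNA into nucleosomes, in RAW264.7, a macrophage line from mouse. Members were taken by gene symbol (Hist1h to Hist4h, H1f, H2af and H3f) among probes that some group showed clear of background, as the scanner software judges it, on each of its 3 arrays. The array carried 64 such genes, and 57 of them, of 13849 genes tested, met that condition. They comprised 45 of 49 replication-dependent histone genes, named Hist1h to Hist4h, and 12 of 15 variant histone genes, named H1f, H2af and H3f. Hist1h1d, Hist1h2al, Hist3h2ba, Hist3h2bb-ps, H1fnt, H1fx and H2afb1 did not meet it. A member that was above background in only some groups had to differ between groups to some extent. Of the members, 39 replication-dependent and 11 variant genes were well above background on all 12 arrays.

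RNA was measured on 12 1-colour arrays, 3 for each of 4 groups that all used the same cell line. HS + LPS cells received 40 mM added NaCl together with 10 ng/ml LPS (lipopolysaccharide, a component of bacterial outer membranes sensed by macrophages), NS + LPS cells received LPS without the added salt, HS cells the added salt alone and NS cells neither, all for 24 h. HS and NS are not spelled out in the labels: HS is taken here to mean high salt, and NS the medium without added NaCl. They do not say that replicates were separate cultures, so p-values measure the spread between these arrays, which may be technical.

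Nucleosomes are built from pairs of H2A, H2B, H3 and H4, and linker histone H1 binds the DNA between them. Replication-dependent histone genes lie in clusters and are expressed in S phase, when new DNA has to be packaged. Their mRNAs usually end in a conserved stem-loop, bound by the protein SLBP, and lack a poly(A) tail. Variant histones replace these proteins at particular sites or in particular cells, are made outside S phase as well, and mostly have polyadenylated mRNAs. Some replication-dependent genes can also give polyadenylated transcripts, above all in cells that no longer divide. The priming used to label the RNA is not given in the sources used here, and it decides how far an mRNA without a poly(A) tail is seen by an array.

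Levels below are a probe's signal divided by the 75th percentile of its array, called relative signal. They can be compared between arrays for a probe but not between probes. That percentile averaged 428 ± 15.3 in HS + LPS, 628 ± 6.84 in NS + LPS, 634 ± 21.5 in HS and 725 ± 74.0 in NS (SD, n = 3 arrays each). A separate slide, scanned on a later day, held all HS + LPS arrays and no others, so slide and scan day cannot be told apart from HS + LPS in any comparison that involves it. The remaining arrays shared a slide, except NS + LPS replicate 3. Of 11 macrophage markers on the array 10 were above background on every array and Mrc1 was above it on none. Of 23 markers of other cell types 11 were above background on no array, 7 on some and 5 (Cd4, Cd3e, Kdr, Pecam1 and Elane) on all 12. The summed relative signal of the 8 that passed the filter was 6.5 to 6.70 in HS + LPS, 6.58 to 6.66 in NS + LPS, 6.06 to 7.16 in HS and 5.63 to 6.05 in NS.

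Replication-dependent histone genes were mostly lower with LPS, and lower again where salt was added to LPS. In HS + LPS against NS + LPS, 24 of the 45 fell and 4 rose (limma, Benjamini-Hochberg adjusted p below 0.05 over all genes), while 57.5% of all genes tested were called, 31.3% lower and 26.2% higher. The median log2 difference of the 45 was -0.61, against -0.04 over all genes. Under cyclic loess the median of the 45 was -0.40. Without LPS fewer were called. In HS against NS, 7 fell and 2 rose, with 37.1% of all genes called, 18.8% lower and 18.2% higher, and the median was -0.04 against 0.02. The number called there was 5 in place of 9 when NS replicate 2, HS replicate 2 or HS replicate 3 was left out. Within the shared slide it was 9, with 6 lower and 3 higher.

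LPS without added salt also went with lower values. In NS + LPS against NS, 28 of 45 fell and 3 rose, with 63.8% of all genes called, 35.2% lower and 28.6% higher. The median log2 difference was -0.47, against -0.03 over all genes. The arrays of the shared slide alone gave 27 lower and 3 higher. LPS with salt (HS + LPS against HS) gave 30 falls and 5 rises, with 72.3% of all genes called, 41.8% lower and 30.5% higher, and the median was -1.16 against -0.11. With normexp background correction in place of the scanner's own, that median was -0.44, and it was -0.25 for HS + LPS against NS + LPS. In bulk RNA, fewer cells in S phase and less histone mRNA in each cell cannot be told apart.

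Complete separation of the arrays of both groups, in either direction, held for 31 of 45 in HS + LPS against NS + LPS (68.9%, against 64.2% of all genes), for 32 in NS + LPS against NS (71.1%, against 69.6%), for 38 in HS + LPS against HS (84.4%, against 74.9%) and for 11 of 45 in HS against NS (24.4%, against 50.5%). By direction, in HS + LPS against NS + LPS, 27 of 45 replication-dependent genes were lower on every HS + LPS array than on any NS + LPS array, and 4 were higher, where 35% and 29.2% of all genes did so. LPS with salt gave counts of 33 lower and 5 higher, where all genes gave 43% and 32%. LPS without salt gave 28 and 4, against 38.1% and 31.6% of all genes. In HS against NS they were 8 and 3, against 24.7% and 25.8%.

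**Figure D1:**
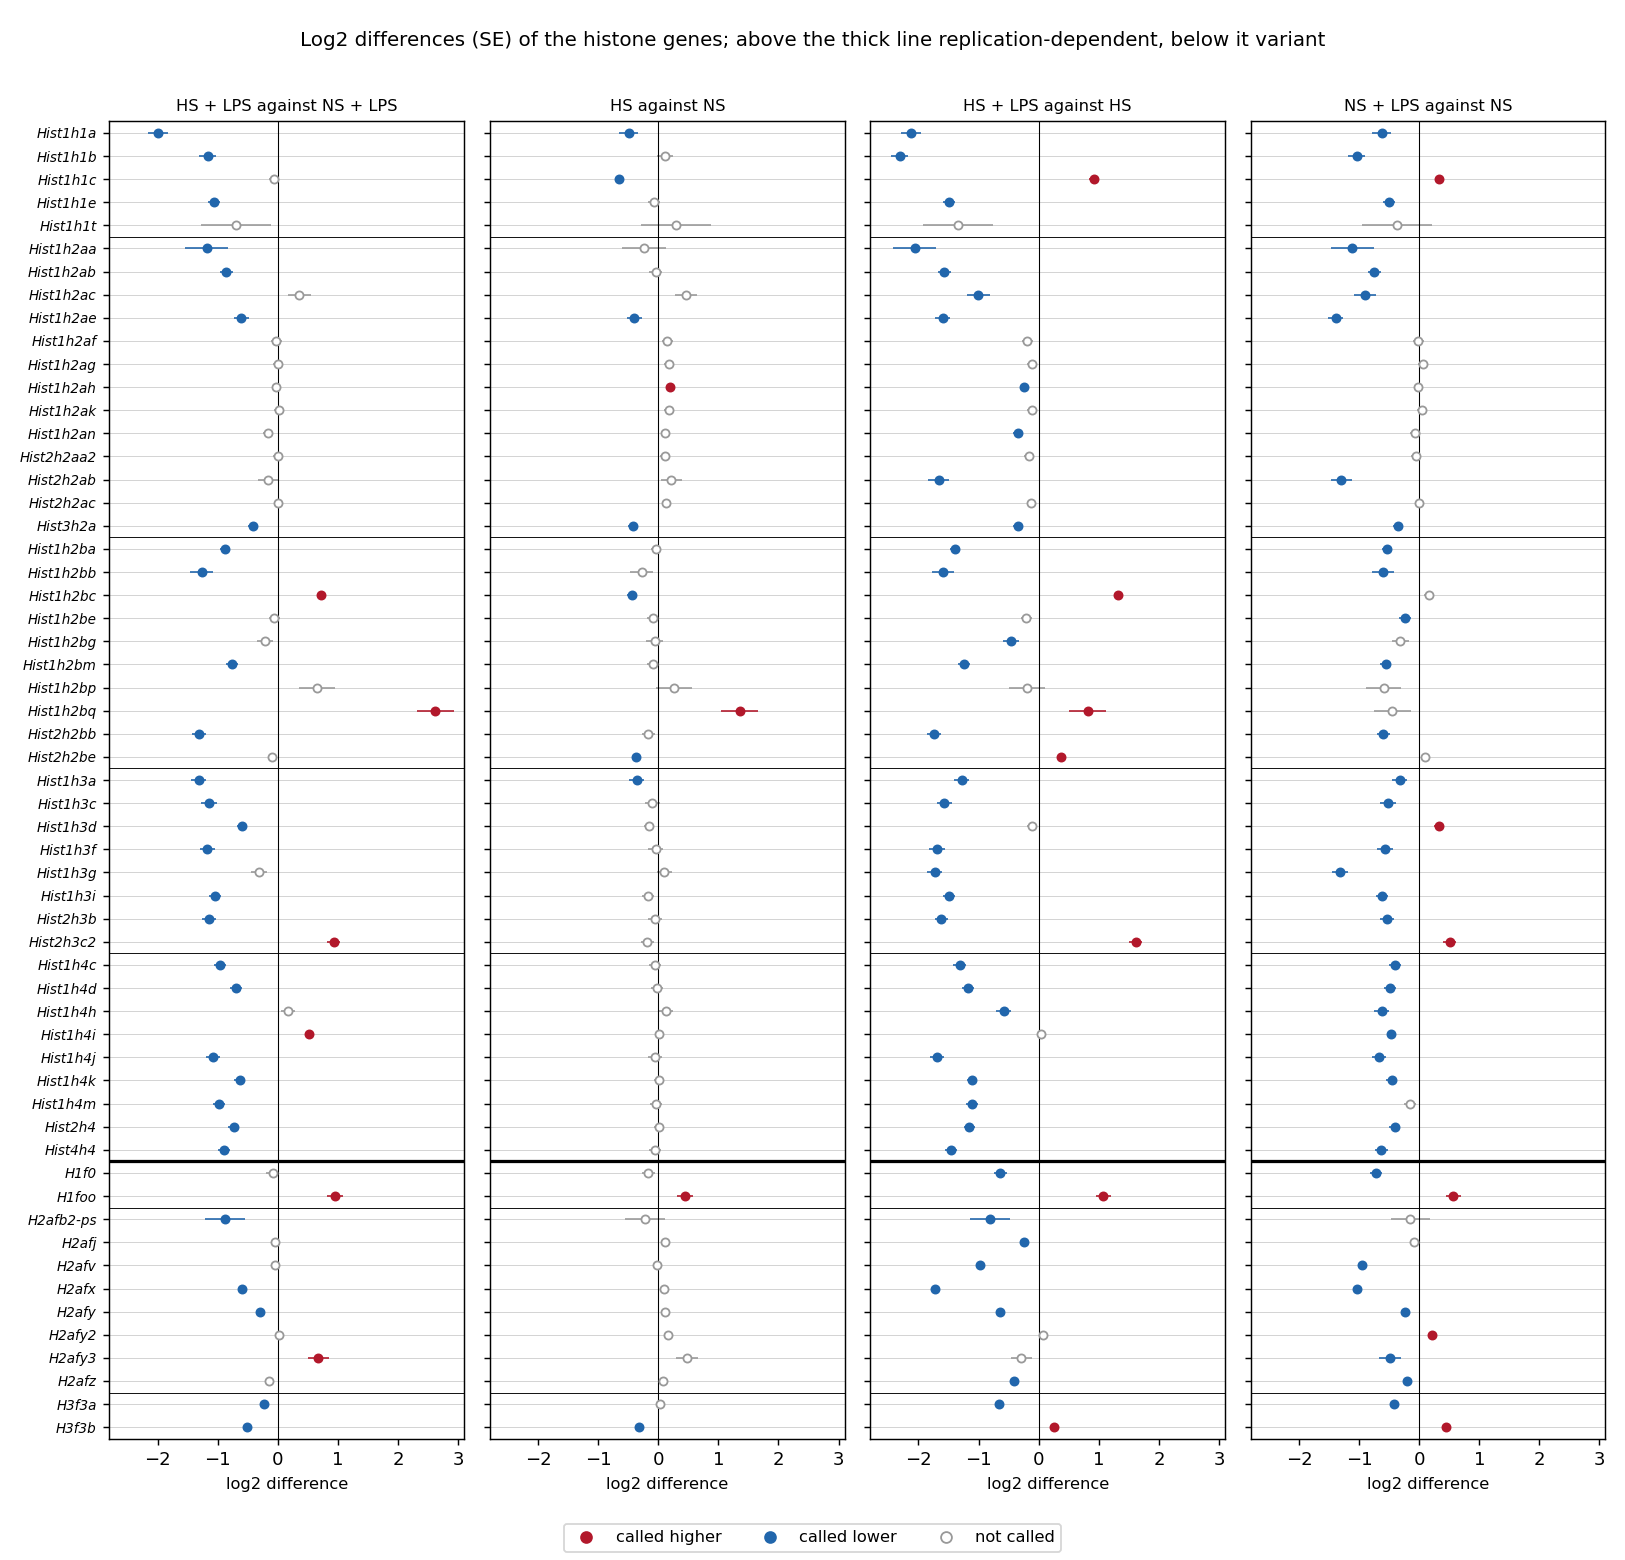
Log2 differences with their SE (horizontal axis) of the 57 histone genes (rows, by class and type) in 4 comparisons (panels). Filled points passed an adjusted p of 0.05. In HS + LPS against NS + LPS 24 replication-dependent genes are lower and 4 higher, and in HS against NS 7 and 2.

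The salt difference itself differed with LPS for many members. The interaction, the salt difference with LPS minus the salt difference without it, was negative and called for 21 of the 45 replication-dependent genes and positive and called for 6, against 18.8% and 17.4% of all genes (36.2% in both directions). Its median was -0.44, against -0.03 over all genes. By type the negative and positive calls were 3 and 1 of 5 for H1, 1 and 0 of 13 for H2A, 4 and 3 of 10 for H2B, 6 and 1 of 8 for H3 and 7 and 1 of 9 for H4. Of all interaction calls 48.0% were positive, and 58.2, 61.6 and 58.3% under quantile normalization, cyclic loess and the deposited table. Under those 3 settings 28, 23 and 28 replication-dependent genes had negative calls and 6 had positive ones under each.

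Linker histones H1 compact the chromatin fibre between nucleosomes. Hist1h1a had a relative signal of 1.08, 1.16 and 0.818 in HS + LPS, 3.87, 3.93 and 4.25 in NS + LPS, 4.95, 4.40 and 3.89 in HS and 7.52, 6.18 and 5.07 in NS. Every HS + LPS array was far below the other 9. It fell in HS + LPS against NS + LPS by 1.99 on the log2 scale (SE 0.16, adjusted p = 4.89e-06), a 3.98-fold difference. In HS against NS it fell by 0.49 (adjusted p = 0.0355), a call that was lost without NS replicate 1, NS replicate 2, HS replicate 2 or HS replicate 3 (log2 -0.35 to -0.49).

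Hist1h1b responded to LPS in both media. Its relative signal was 12.54, 14.2 and 10.98 in HS + LPS, 27.1, 26.8 and 30.5 in NS + LPS, 69.0, 58.6 and 59.6 in HS and 69.6, 58.1 and 47.3 in NS. HS and NS overlapped, and both LPS groups lay below them. It fell by 2.31 in HS + LPS against HS (adjusted p = 1.41e-07) and by 1.04 in NS + LPS against NS (adjusted p = 7.76e-05). The salt difference was -1.17 with LPS and 0.11 (SE 0.14) without it.

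Hist1h1c, another linker histone gene, moved differently. It measured 3.19, 3.05 and 3.31 in HS + LPS, 3.5, 3.17 and 3.34 in NS + LPS, 1.73, 1.81 and 1.53 in HS and 2.86, 2.57 and 2.55 in NS. The HS arrays were the lowest, and the groups with LPS overlapped. It fell in HS against NS by 0.66 (adjusted p = 8.45e-05) and rose in HS + LPS against HS by 0.92 (adjusted p = 1.04e-06). With LPS the salt difference was -0.07 (SE 0.07).

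H2A values differed between probes. Of 13 replication-dependent H2A genes, 4 fell and 0 rose in HS + LPS against NS + LPS, and 8 fell and 0 rose in HS + LPS against HS. All genes gave 31.3% lower and 26.2% higher, then 41.8% and 30.5%. Hist1h2aa and Hist1h2ac, among the 8, passed the filter only through the groups without LPS. The filter thus favoured their falls with LPS, here and in NS + LPS against NS. Hist1h2aa, also among the 4, was not well above background in either group of the first comparison. The 30.8% of H2A genes lower in the first comparison was near the share of all genes. The probes of 7 of them (Hist1h2af, Hist1h2ag, Hist1h2ah, Hist1h2ak, Hist1h2an, Hist2h2aa2 and Hist2h2ac) and of the variant H2afj cover the last codons of near-identical reading frames. An array probe of this length may bind mRNA of several of these genes, so their values are not separate measurements. Probe sequences of 5 of them are shown because they carry this limit, with capitals for bases that differ from the aligned Hist1h2ah probe (coordinates on mm9).

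Hist1h2ah, chr13:22127035-22127094, minus strand: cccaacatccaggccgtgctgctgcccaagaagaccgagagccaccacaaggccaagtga
Hist1h2af, chr13:23626113-23626172, plus strand: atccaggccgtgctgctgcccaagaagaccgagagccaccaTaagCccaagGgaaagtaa
Hist1h2ak, chr13:21845304-21845363, minus strand: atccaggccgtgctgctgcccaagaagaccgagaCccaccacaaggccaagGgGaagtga
Hist1h2an, chr13:21878695-21878754, minus strand: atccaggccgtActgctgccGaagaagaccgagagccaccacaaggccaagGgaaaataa
Hist2h2aa2, chr3:96043781-96043840, minus strand: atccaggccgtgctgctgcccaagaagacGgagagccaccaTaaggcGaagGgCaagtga

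Over the bases they share with the Hist1h2ah probe, the Hist1h2af, Hist1h2ak and Hist1h2an probes differ at 3 and the Hist2h2aa2 probe at 5. All 5 end at a stop codon. Among the probes of this group that are not shown, that of Hist1h2ag differs from the Hist1h2ah probe at 2 of 42 shared bases. The H2afj probe differs at 9 of 53 and the Hist2h2ac probe at 13 of 57, aligned without gaps. Hist2h2ac joined the group through H2afj, from which it differs at 5 of 50. Hist1h2ah had a relative signal of 681, 752 and 641 in HS + LPS, 707, 690 and 719 in NS + LPS, 824, 815 and 825 in HS and 779, 676 and 697 in NS. The probe gave 64.9 to 100% of the brightest non-control spot on its array, and no spot was saturated. Across the 7 genes the log2 difference in HS + LPS against NS + LPS lay between -0.17 and 0.01, and 0 of 7 were called by limma, or passed an unadjusted p of 0.05. Under quantile normalization and on the deposited table, Hist1h2ah itself was called there, both at -0.29, and under normexp at -0.21. For LPS with salt the range was -0.35 to -0.12, and 2 of 7 fell.

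Some H2A probes elsewhere fell further, but not all. For salt with LPS Hist2h2ab gave -0.15, within the range above, and Hist1h2ac, near background, 0.36 (not called). For LPS with salt Hist3h2a gave -0.34, also within the range above. The second Hist2h2aa2 probe rose in both comparisons, as given below. The second Hist1h2ak probe, 333 bases away towards the start codon, had a relative signal of 91.3, 105 and 81.9 in HS + LPS, 156, 147 and 155 in NS + LPS, 248, 252 and 248 in HS and 275, 242 and 234 in NS. The HS + LPS arrays were the lowest and the NS + LPS arrays lay between them and the groups without LPS. In a fit of single probes it fell by 0.73 in HS + LPS against NS + LPS and by 0.71 in NS + LPS against NS (adjusted p = 6.63e-05 and 3.4e-05).

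Hist2h2ab measured 0.165, 0.227 and 0.166 in HS + LPS, 0.209, 0.216 and 0.190 in NS + LPS, 0.602, 0.552 and 0.598 in HS and 0.666, 0.470 and 0.405 in NS. Both LPS groups lay below both groups without LPS. Hist2h2ab fell in NS + LPS against NS by 1.29 (adjusted p = 7.21e-05), and its salt differences were -0.15 with LPS and 0.22 without. Hist3h2a, an H2A gene outside the largest cluster, measured 2.00, 2.35 and 1.96 in HS + LPS, 2.78, 2.69 and 2.90 in NS + LPS, 2.76, 2.85 and 2.39 in HS and 3.57, 3.54 and 3.54 in NS. It fell in all 4 comparisons, by 0.41 for salt with LPS, 0.42 for salt alone, 0.35 for LPS without salt and 0.34 for LPS with salt (SE 0.08, adjusted p between 0.00158 and 0.00305). Hist1h2aa was not well above background in either LPS group, with signals of 0.0135, 0.0310 and 0.0123 in HS + LPS and 0.0313, 0.0465 and 0.0416 in NS + LPS, against 0.0727, 0.0719 and 0.0713 in HS and 0.116, 0.0972 and 0.0541 in NS. Hist1h2ae was not well above background in HS + LPS. It measured 0.0566, 0.0635 and 0.0739 in HS + LPS, 0.0959, 0.0901 and 0.108 in NS + LPS, 0.234, 0.180 and 0.175 in HS and 0.249, 0.270 and 0.252 in NS, with the LPS groups below the others. Hist1h2ae was at least 1.5-fold lower in HS + LPS than in NS + LPS (adjusted p = 0.00229), though with normexp background correction its log2 difference was 0.03.

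H2B genes included members that fell and members that rose. Of 10, 4 fell and 2 rose in HS + LPS against NS + LPS, and 5 fell and 3 rose in HS + LPS against HS, where all genes gave 31.3% and 26.2%, then 41.8% and 30.5%. Hist2h2bb, read by a probe that ends at its stem-loop, had a relative signal of 9.16, 10.2 and 8.45 in HS + LPS, 22.9, 23.1 and 22.9 in NS + LPS, 33.1, 30.3 and 29.4 in HS and 41.8, 33.2 and 30 in NS. The NS + LPS arrays lay between HS + LPS and the groups without LPS, which overlapped. It fell by 1.31 for salt with LPS (adjusted p = 6.7e-06) and by 1.74 in HS + LPS against HS (adjusted p = 2.12e-07).

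Hist1h2bc did the opposite under LPS. It measured 6.10, 5.69 and 6.47 in HS + LPS, 3.60, 3.64 and 3.79 in NS + LPS, 2.53, 2.49 and 2.27 in HS and 3.74, 3.08 and 3.12 in NS. All HS + LPS arrays were above the other 9, and all HS arrays below them. It rose by 0.73 for salt with LPS (adjusted p = 4.06e-05), fell by 0.44 for salt alone (adjusted p = 0.00182) and rose by 1.33 in HS + LPS against HS (adjusted p = 1.41e-07).

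Hist1h2bq was well above background on all HS + LPS and HS arrays and on no array without added salt. It passed the filter only through the groups with added salt, so the filter favoured its rises with salt, which are counted above. Its relative signal was 0.165, 0.135 and 0.126 in HS + LPS, 0.0297, 0.0135 and 0.0301 in NS + LPS, 0.0684, 0.0765 and 0.0981 in HS and 0.0255, 0.0428 and 0.0282 in NS. It was at least 2.67-fold higher in HS + LPS than in NS + LPS (adjusted p = 6.17e-05) and at least 1.94-fold higher in HS than in NS (adjusted p = 0.0065). Hist2h2be measured 1.36, 1.36 and 1.38 in HS + LPS, 1.56, 1.42 and 1.40 in NS + LPS, 0.971, 1.15 and 1.05 in HS and 1.33, 1.39 and 1.39 in NS. The HS arrays were the lowest for Hist2h2be, which fell by 0.38 for salt alone (adjusted p = 0.00109) and rose by 0.38 in HS + LPS against HS (adjusted p = 0.000307).

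Most H3 genes fell with LPS, and with salt under LPS. Of 8, 6 fell and 1 rose in HS + LPS against NS + LPS, and the same counts held in HS + LPS against HS. In NS + LPS against NS 6 fell and 2 rose. All genes gave 31.3% lower and 26.2% higher, 41.8% and 30.5%, and 35.2% and 28.6% in these 3 comparisons. Hist1h3a measured 0.115, 0.139 and 0.122 in HS + LPS, 0.310, 0.292 and 0.333 in NS + LPS, 0.344, 0.283 and 0.287 in HS and 0.472, 0.366 and 0.341 in NS. The HS + LPS arrays of Hist1h3a stood below all others, with a fall of 1.32 against NS + LPS (adjusted p = 1.63e-05). Hist1h3g measured 0.799, 0.895 and 0.773 in HS + LPS, 0.996, 0.905 and 1.17 in NS + LPS, 2.96, 2.83 and 2.41 in HS and 2.89, 2.61 and 2.17 in NS. It fell with LPS alone, by 1.32 (adjusted p = 6.29e-06), and its salt difference under LPS was -0.31 (SE 0.13, adjusted p = 0.0604).

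Hist2h3c2 rose where its neighbours in the family fell. Its relative signal was 1.38, 1.16 and 1.38 in HS + LPS, 0.683, 0.653 and 0.714 in NS + LPS, 0.454, 0.444 and 0.381 in HS and 0.564, 0.457 and 0.433 in NS. It rose by 0.93 for salt with LPS (adjusted p = 6.58e-05), by 0.51 for LPS without salt (adjusted p = 0.00225) and by 1.62 for LPS with salt (adjusted p = 3.61e-07). Without LPS the salt difference was -0.18 (SE 0.11). Hist1h3d measured 148, 161 and 141 in HS + LPS, 230, 220 and 231 in NS + LPS, 161, 164 and 161 in HS and 203, 178 and 165 in NS. It was highest in NS + LPS, rose by 0.32 in NS + LPS against NS (adjusted p = 0.00272) and fell by 0.60 in HS + LPS against NS + LPS (adjusted p = 7.69e-05).

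H4 is the least variable of the core histones, encoded by many genes for an identical or nearly identical protein. Of 9 H4 genes, 7 fell and 1 rose in HS + LPS against NS + LPS, and 8 fell and 0 rose in both NS + LPS against NS and HS + LPS against HS. All genes gave 31.3% lower and 26.2% higher, 35.2% and 28.6%, and 41.8% and 30.5% in that order. For salt alone 37.1% of all genes were called. Salt alone gave 0 of 9 called by limma, and 0 of 9 with an unadjusted p under 0.05, with log2 differences from -0.06 to 0.13. Hist4h4 had a relative signal of 22.0, 26.8 and 22.0 in HS + LPS, 43.3, 42.1 and 45.1 in NS + LPS, 69.2, 61.3 and 63.4 in HS and 76.7, 66.0 and 59.8 in NS. HS + LPS was lowest, NS + LPS next, and HS overlapped NS. Hist4h4 fell by 0.89 for salt with LPS (adjusted p = 4.86e-05), by 0.63 for LPS without salt and by 1.46 for LPS with salt. The H4 rise for salt with LPS was that of the brightest Hist1h4i probe, annotated to a clone with an apparent retained intron. Hist1h4i was named after its values were seen and is taken up with its other probes below. Hist1h4h measured 0.352, 0.275 and 0.304 in HS + LPS, 0.236, 0.282 and 0.312 in NS + LPS, 0.506, 0.442 and 0.440 in HS and 0.431, 0.463 and 0.379 in NS. Both LPS groups of Hist1h4h lay below both groups without LPS, with falls of 0.62 without salt (adjusted p = 0.00119) and 0.58 with it (adjusted p = 0.00166). Some H4 probes are also near-identical, such as that of Hist1h4j and the second, dimmer probe of Hist1h4k, which differ at 2 of 48 shared bases. The brighter Hist1h4k probe stands for that gene in the counts.

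**Figure D2:**
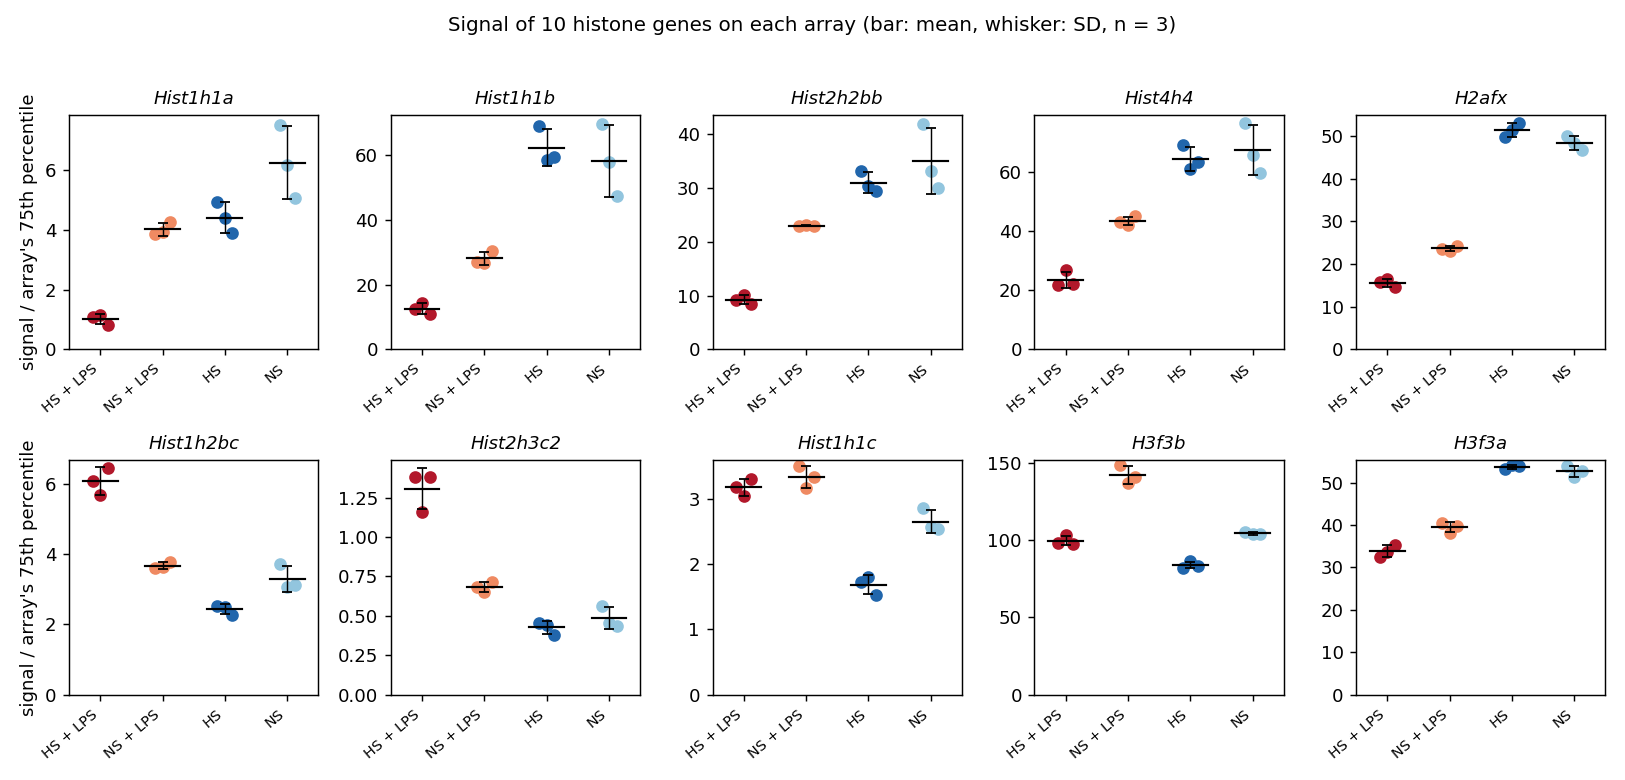
Relative signal (vertical axis, starting at 0) of 10 histone genes on each of the 12 arrays, with group means and SD. Hist1h1a, Hist1h1b, Hist2h2bb, Hist4h4 and H2afx are lowest in HS + LPS, while Hist1h2bc and Hist2h3c2 are highest there.

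The direction of change also differed with the sequence a probe holds. The 52 probes of replication-dependent genes that passed the filter were sorted by their letters after the values had been seen. In 5 genes the probe holds the histone stem-loop with fewer than 10 bases after it, so that it covers the ordinary mRNA end. Three-prime parts of probes are shown because the sorting rests on their letters, with the stem-loop, the poly(A) signal or the run of A in capitals. Which transcripts these probes read was not tested.

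Hist1h3a, stem-loop at the end: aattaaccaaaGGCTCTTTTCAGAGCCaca
Hist1h4m, stem-loop at the end: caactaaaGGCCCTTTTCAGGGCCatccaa
Hist2h2bb, stem-loop at the end: acccaaaaGGCTCTTTTCAGAGCCacttta
Hist2h2aa2, stem-loop with a long stretch after it: aaaaGGCTCTTTTCAGAGCCacccactgaa
Hist2h2bb, second probe with a poly(A) signal: gtttgAATAAAgacagagaaactgataggc
Hist1h2be, poly(A) signal: tactgttcattATTAAAgcattcctgattg
Hist2h3c2, run of A at the end: ataattacatcaccagacttctggAAAAAA
Hist1h4i, run of A at the end: tgcgccacaagacctggccagtgtAAAAAA

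The Hist1h3a probe lies at chr13:23853756-23853815 on the minus strand, the Hist1h4m probe at chr13:21903960-21904019 on the plus strand and the Hist1h2be probe at chr13:23675610-23675669 on the minus strand (mm9). Those of Hist2h2bb lie at chr3:96074056-96074115 and chr3:96082754-96082813 on the plus strand, and that of Hist2h2aa2 at chr3:96043669-96043728 on the minus strand. The last pair, Hist2h3c2 and Hist1h4i, have no coordinates in the files. The 5 probes with a stem-loop near their end (Hist1h3a, Hist1h3g, Hist1h3i, Hist1h4m and Hist2h2bb) were lower in 5 of 5 cases in HS + LPS against HS, and in 4 of 5 in HS + LPS against NS + LPS and in NS + LPS against NS. Over all 18834 probes tested one by one, 41.9, 30 and 35.3% were lower in those 3 comparisons. For salt alone their log2 differences ran from -0.36 to 0.10, and 17.2% of all probes were lower. The lowest, Hist1h3a, was called in the fit over genes (adjusted p = 0.0492), a call lost without any 1 of 9 arrays, and was not called over probes.

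Of 4 probes with a poly(A) signal or a terminal run of A, 3 rose and 0 fell in HS + LPS against NS + LPS and again in HS + LPS against HS, where 25.4 and 29.9% of all probes rose. The exception was Hist1h2be, at -0.06 and -0.21. In NS + LPS against NS 1 rose, that of Hist2h3c2, and 1 fell, that of Hist1h2be. The near-identical H2A probes, of which that of Hist1h2ag also holds a poly(A) signal, were kept apart from these. The remaining 33 probes, which hold none of these features and do not end at a stop codon, had 22 falls and 3 rises in HS + LPS against NS + LPS.

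**Figure D3:**
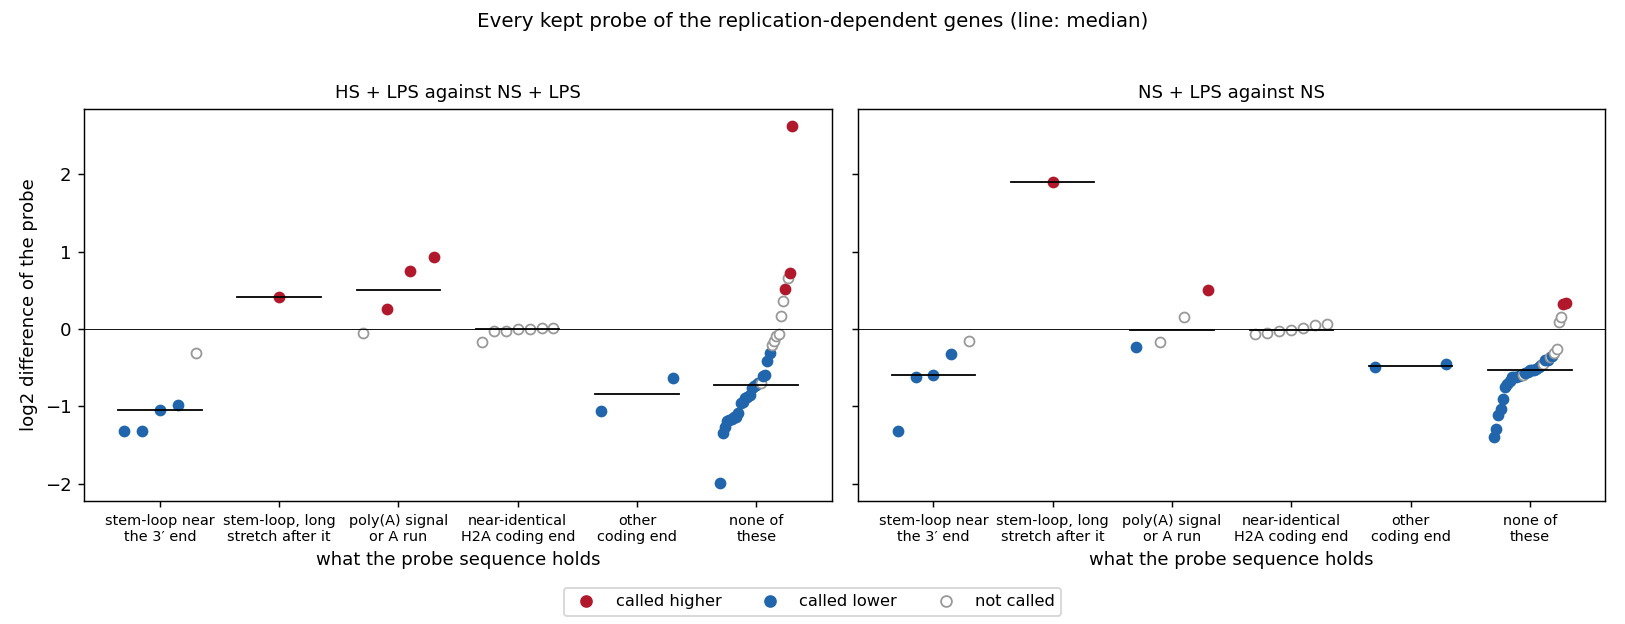
Log2 difference (vertical axis) of each kept probe of a replication-dependent histone gene by what its sequence holds (horizontal axis), with salt under LPS at left and LPS without salt at right. The 5 probes with fewer than 10 bases after the stem-loop lie below 0, the Hist2h2aa2 probe with a longer stretch after it lies above 0, the near-identical H2A probes lie near 0 and 3 of 4 probes with a poly(A) signal or run of A are called higher at left.

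Genes with several probes showed both directions within a gene. The second Hist2h2bb probe starts 8698 bases downstream of the first. Its relative signal was 1.34, 1.02 and 1.26 in HS + LPS, 0.718, 0.651 and 0.780 in NS + LPS, 0.546, 0.521 and 0.539 in HS and 0.646, 0.695 and 0.594 in NS. All HS + LPS arrays were above all others, whereas the stem-loop probe of the same gene was lowest there. The second probe rose by 0.75 in HS + LPS against NS + LPS (adjusted p = 0.000188 over all probes) and by 1.16 in HS + LPS against HS (adjusted p = 2.62e-06).

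The Hist2h2aa2 probe with 38 bases after its stem-loop measured 8.20, 7.20 and 8.76 in HS + LPS, 5.85, 5.84 and 6.42 in NS + LPS, 1.24, 1.15 and 1.12 in HS and 1.68, 1.71 and 1.45 in NS. Both LPS groups were far above both groups without LPS. It rose by 1.90 for LPS without salt (adjusted p = 1.67e-08), by 2.78 for LPS with salt (adjusted p = 9.98e-10) and by 0.41 for salt with LPS (adjusted p = 0.00245), and fell by 0.46 for salt alone (adjusted p = 0.00238). The coding-end probe of Hist2h2aa2 gave -0.05, -0.16, -0.00 and 0.11 in the same comparisons, with 0 of 4 called.

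The brightest Hist1h4i probe is annotated to a cDNA clone with an apparent retained intron, and the other Hist1h4i probes to the RefSeq mRNA. The brightest probe measured 4.12, 4.19 and 4.29 in HS + LPS, 3.14, 2.81 and 2.85 in NS + LPS, 3.91, 4.25 and 4.12 in HS and 4.31, 3.88 and 3.97 in NS. Only NS + LPS stood apart, below the others. A second Hist1h4i probe, 548 bases away, measured 1.31, 1.28 and 1.36 in HS + LPS, 1.66, 1.56 and 1.67 in NS + LPS, 2.30, 2.33 and 2.41 in HS and 2.77, 2.26 and 2.12 in NS. For salt with LPS the first rose by 0.52 and the second fell by 0.31 (adjusted p = 0.0106). The third, with the run of A, rose by 0.26 (adjusted p = 0.0166).

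**Figure D4:**
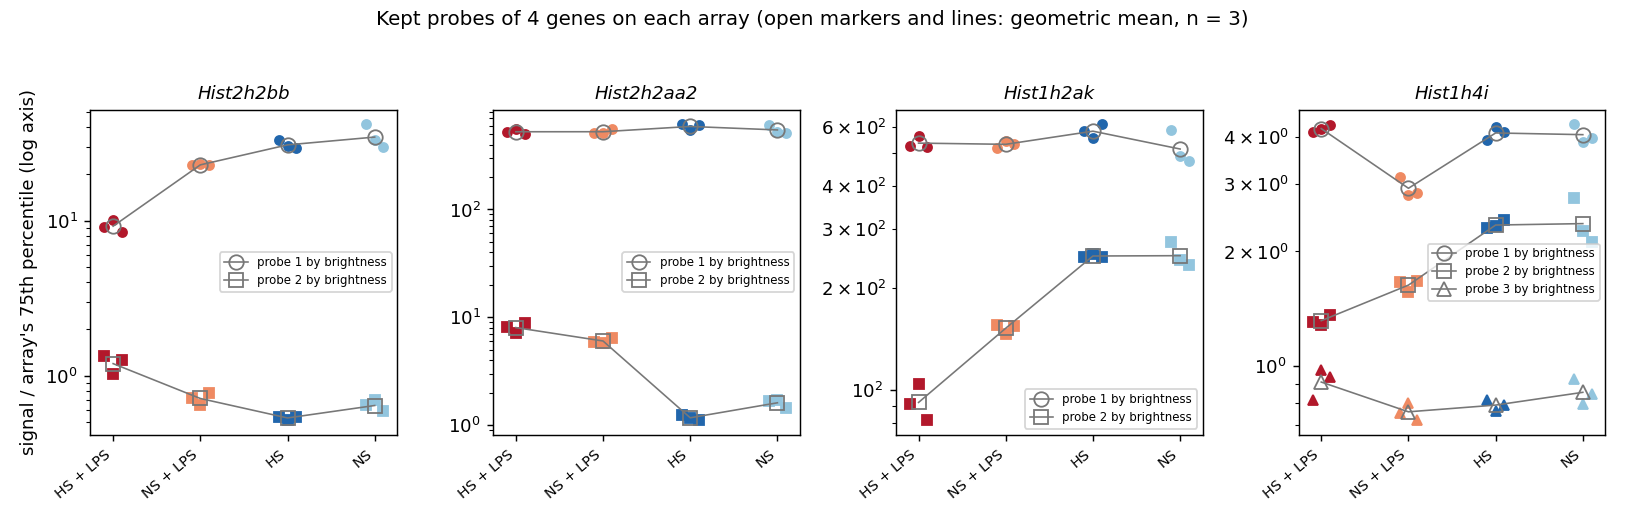
Relative signal (vertical log axis) of the kept probes of Hist2h2bb, Hist2h2aa2, Hist1h2ak and Hist1h4i on each array, with geometric means joined by lines. The probes of Hist2h2bb run in opposite directions, and the dimmer Hist2h2aa2 probe is high in both LPS groups.

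Spans were matched by the RefSeq accession of the brightest probe. Hist1h4i and Hist2h3c2, whose brightest probes have none, were left out. They rose by 0.52 and 0.93 for salt with LPS, and gave 0.04 (not called) and 1.62 for LPS with salt. Of the 43 matched among 45 genes, 5 have a span over 1000 bases, all of them H2B genes (Hist1h2bc, Hist1h2be, Hist1h2bp, Hist1h2bq and Hist2h2be). Of these 5, 3 rose and 0 fell in HS + LPS against HS, with a median of 0.38, where 30.5% of all genes rose and 41.8% fell. Of the 38 shorter genes 1 rose and 30 fell, with a median of -1.30. In HS + LPS against NS + LPS 2 of the 5 rose and 0 fell, where 26.2% of all genes rose and 31.3% fell. Hist1h2bq, 1 of the 2, passed the filter only through the groups with added salt, so the filter favoured its rise. LPS without salt gave the 5 long genes 0 rises and 1 fall (median -0.24) and the shorter genes 2 rises and 26 falls (median -0.51). Salt alone gave the long genes 1 rise, again of Hist1h2bq, and 2 falls, and the shorter genes 1 rise and 5 falls. All genes gave 28.6% rises and 35.2% falls for LPS without salt, and 18.2% and 18.8% for salt alone. The limit of 1000 bases was chosen after the values were seen.

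Variant histones, like all genes, were called lower more often than higher when LPS was involved. Among all genes 31.3% were lower and 26.2% higher in HS + LPS against NS + LPS, and 18.8% and 18.2% in HS against NS. The shares were 35.2% and 28.6% for LPS without salt and 41.8% and 30.5% for LPS with salt. In HS + LPS against NS + LPS 5 of 12 fell and 2 rose, with a median log2 difference of -0.11 (-0.20 on the deposited table). Salt alone gave 1 fall, of H3f3b, and 1 rise, of H1foo. LPS without salt gave 7 falls and 3 rises, with a median of -0.22, or -0.44 when probes of a gene were averaged. LPS with salt gave 8 falls and 2 rises, with a median of -0.52, or -0.30 with normexp. The interaction was negative and called for 4 of 12, against 18.8% of all genes. Without NS replicate 1 the count for HS against NS was 4, and without NS replicate 2, NS replicate 3 or HS replicate 3 it was 1.

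H2afx encodes H2A.X, which is phosphorylated around DNA breaks, and its gene gives both stem-loop and polyadenylated mRNA. It had a relative signal of 15.9, 16.4 and 14.5 in HS + LPS, 23.6, 23.0 and 24.3 in NS + LPS, 49.8, 51.5 and 53.0 in HS and 50.01, 48.3 and 46.7 in NS. The groups with LPS were clearly below those without, and HS + LPS was lowest. H2afx fell by 1.03 for LPS without salt (adjusted p = 4.13e-08), by 1.72 for LPS with salt (adjusted p = 8.81e-10) and by 0.60 for salt with LPS (adjusted p = 8.12e-06). For salt alone its difference was 0.09 (SE 0.05).

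The H2A.Z proteins, found near gene starts, come from H2afz and H2afv. H2afv measured 14.7, 16.3 and 14.8 in HS + LPS, 16.4, 15.5 and 15.6 in NS + LPS, 28.2, 31.0 and 31.1 in HS and 31.9, 31.0 and 28.5 in NS. It fell with LPS by 0.95 without salt (adjusted p = 2.98e-07) and by 0.98 with salt (adjusted p = 2.01e-07), and its salt differences were -0.05 and -0.02 (SE 0.06). A second, dimmer H2afv probe was not well above background on any HS + LPS array. H2afz measured 250, 268 and 245 in HS + LPS, 276, 281 and 283 in NS + LPS, 336, 331 and 345 in HS and 349, 317 and 298 in NS. H2afz fell by 0.41 in HS + LPS against HS (adjusted p = 9.88e-05) and by 0.20 in NS + LPS against NS (adjusted p = 0.0132). Its second probe fell further, by 0.81 and 0.61 in these comparisons, and rose by 0.16 for salt alone.

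H3f3a and H3f3b encode the same replacement H3, which is deposited at active genes independently of replication, and their values took different courses. H3f3a measured 32.5, 33.7 and 35.3 in HS + LPS, 40.5, 38.2 and 39.8 in NS + LPS, 53.2, 54.1 and 54.0 in HS and 54.1, 51.3 and 52.6 in NS. H3f3a fell by 0.41 for LPS without salt (adjusted p = 8.07e-06) and by 0.22 for salt with LPS (adjusted p = 0.00118). H3f3b measured 98.1, 103 and 97.4 in HS + LPS, 148, 137 and 141 in NS + LPS, 81.8, 86.1 and 83.4 in HS and 105, 104 and 104 in NS. The salt groups of H3f3b lay below their counterparts both with and without LPS.

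H3f3b fell by 0.51 for salt with LPS (adjusted p = 5.77e-06) and by 0.32 for salt alone (adjusted p = 0.000278), and it rose by 0.44 for LPS without salt (adjusted p = 5.28e-06). All 3 of its probes fell in both salt comparisons, with differences of -0.92 to -0.51 with LPS. For LPS with salt its probes disagreed, with 1 higher (0.25) and 2 lower (-0.24 and -0.15).

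The macroH2A gene H2afy, whose product carries a large extra domain and is associated with silent chromatin, measured 8.03, 8.39 and 8.09 in HS + LPS, 10.1, 9.66 and 10.3 in NS + LPS, 12.55, 13.3 and 12.7 in HS and 12.2, 11.9 and 11.3 in NS. It fell by 0.29 for salt with LPS (adjusted p = 0.000319) and by 0.24 for LPS without salt (adjusted p = 0.000741). A dimmer H2afy probe fell by 1.11 with LPS alone and gave -0.01 for salt with LPS. H1f0, the H1 form typical of non-dividing cells, measured 0.268, 0.216 and 0.261 in HS + LPS, 0.284, 0.272 and 0.234 in NS + LPS, 0.344, 0.410 and 0.406 in HS and 0.446, 0.401 and 0.450 in NS. H1f0 fell with LPS, by 0.72 without salt (adjusted p = 0.000148) and by 0.64 with it (adjusted p = 0.000297).

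H1foo, the oocyte linker histone, was higher on all HS + LPS arrays than on any other. It measured 0.741, 0.726 and 0.779 in HS + LPS, 0.379, 0.382 and 0.399 in NS + LPS, 0.420, 0.301 and 0.353 in HS and 0.313, 0.242 and 0.232 in NS. H1foo rose by 0.95 for salt with LPS (adjusted p = 0.00015) and by 1.08 in HS + LPS against HS (adjusted p = 2.57e-05). H2afy2, a second macroH2A gene, measured 2.00, 2.14 and 2.15 in HS + LPS, 2.01, 1.96 and 2.21 in NS + LPS, 2.16, 1.90 and 1.93 in HS and 1.88, 1.75 and 1.71 in NS. It rose by 0.21 for LPS without salt (adjusted p = 0.017), a call lost when any 1 of 3 arrays was left out. H2afy3, listed on the array as a non-coding macroH2A transcript, measured 0.182, 0.236 and 0.154 in HS + LPS, 0.116, 0.129 and 0.108 in NS + LPS, 0.196, 0.211 and 0.290 in HS and 0.140, 0.180 and 0.176 in NS. NS + LPS was lowest. H2afy3 rose by 0.68 for salt with LPS (adjusted p = 0.00952) and fell by 0.48 for LPS without salt (adjusted p = 0.0394), the second call being lost without any 1 of 5 arrays and on the shared slide alone. H2afb2-ps, an annotated pseudogene, measured 0.0348, 0.0547 and 0.0870 in HS + LPS, 0.0990 to 0.104 in NS + LPS, 0.147, 0.0745 and 0.0808 in HS and 0.117, 0.131 and 0.0909 in NS. Only 1 of 3 HS + LPS arrays was well above background for H2afb2-ps, and its call for salt with LPS (adjusted p = 0.0418) was lost without any 1 of 7 arrays. H2afj has a coding-end probe of the near-identical group and a second probe 1252 bases away that measured 3.51, 3.45 and 3.59 in HS + LPS, 2.54, 2.42 and 2.61 in NS + LPS, 7.14, 7.33 and 7.41 in HS and 4.87, 4.68 and 4.75 in NS. That second H2afj probe separated all 4 groups. It rose with salt by 0.48 with LPS and by 0.61 without, and fell with LPS by 0.92 without salt and by 1.05 with it, while the coding-end probe gave -0.05, 0.11, -0.09 and -0.24.

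Genes that act on histone supply were counted from 3 lists. Over all genes the shares lower and higher were 31.3% and 26.2% in HS + LPS against NS + LPS, 18.8% and 18.2% in HS against NS, 35.2% and 28.6% in NS + LPS against NS and 41.8% and 30.5% in HS + LPS against HS. Of 55 measured genes of S phase and replication, 35 fell and 4 rose in HS + LPS against NS + LPS, 1 fell and 9 rose in HS against NS, 32 fell and 8 rose in NS + LPS against NS, and 43 fell and 5 rose in HS + LPS against HS. Their medians were -0.22, 0.04, -0.18 and -0.62. Ccna2, the cyclin of S and G2 phase, averaged 11.4 ± 1.2 in HS + LPS, 18.2 ± 1.0 in NS + LPS, 37.7 ± 1.7 in HS and 38.5 ± 1.7 in NS (relative signal, SD, n = 3). Cdkn1a, the cell cycle inhibitor p21, averaged 84.2 ± 2.8 in HS + LPS, 44.8 ± 2.2 in NS + LPS, 22.5 ± 0.50 in HS and 24.4 ± 0.69 in NS, so that HS + LPS was highest. Its rise for salt with LPS was 0.91 (adjusted p = 3e-07), beside falls of 0.68 for Ccna2 and 0.93 for Cdc6, which loads the replicative helicase. How far these cell cycle genes account for the histone values was not tested.

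Of 36 measured histone chaperones and deposition factors, 12 fell and 11 rose in HS + LPS against NS + LPS, 1 fell and 11 rose in HS against NS, 21 fell and 5 rose in NS + LPS against NS, and 24 fell and 3 rose in HS + LPS against HS. The shares in HS + LPS against NS + LPS, 33.3% lower and 30.6% higher, were near those of all genes. Nasp, a carrier of newly made H3 and H4, fell by 0.66 for salt with LPS (adjusted p = 1.9e-05), and Hat1, which acetylates new H4, fell by 0.56 (adjusted p = 9.9e-05). Asf1b, a chaperone of H3 and H4, fell by 0.47. Daxx, which deposits the replacement H3, rose by 2.01 for LPS without salt (adjusted p = 6.2e-10). Asf1a fell by 0.90 in the same comparison.

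Of 31 measured genes of histone transcription and mRNA processing, 7 fell and 14 rose in HS + LPS against NS + LPS, 2 fell and 11 rose in HS against NS, 14 fell and 7 rose in NS + LPS against NS, and 15 fell and 7 rose in HS + LPS against HS. Coil, a scaffold of Cajal bodies, fell by 0.41 for salt with LPS (adjusted p = 5.2e-05), and Cpsf1, a cleavage factor subunit, rose by 0.47 (adjusted p = 0.00036). For LPS without salt Cpsf2, another subunit, fell by 1.15 and Eri1, a nuclease that trims histone mRNA, by 1.09 (adjusted p = 1.2e-08 and 2.2e-08). Hinfp, a factor of H4 gene promoters, rose by 0.46 for salt alone (adjusted p = 3.7e-05).

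Promoters of the members share known letters. RefSeq promoters (GRCm38.p6, from 250 bases before to 50 after the start) matched 47 of the 57 genes, 38 of them replication-dependent. Both strands were searched for the octamer ATTTGCAT, which in H2B promoters is bound by Oct-1, and it stood in 12 of 38 (31.6%), against 1.75% of all 27025 promoters. It was in 5 of 8 H2B and 7 of 13 H2A promoters and in none of H1, H3 or H4. TATAAA stood in 57.9% (14.2% of all), CCAAT in 86.8% (37.9%) and the E2F core TTTCGCGC in 13.2% (0.318%). Windows of the 3 H2B genes below show the octamer in capitals, upstream of the start.

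Hist2h2bb, chr3:96269636-96269695, plus strand: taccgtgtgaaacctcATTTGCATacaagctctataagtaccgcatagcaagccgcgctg
Hist1h2bb, chr13:23746628-23746687, plus strand: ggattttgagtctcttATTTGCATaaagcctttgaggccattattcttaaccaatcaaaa
Hist1h2bg, chr13:23571325-23571384, plus strand: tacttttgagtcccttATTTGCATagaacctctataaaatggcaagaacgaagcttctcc

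Those H2B genes stand for the 5 with an octamer, of which 4 fell and 0 rose in HS + LPS against NS + LPS and 5 fell in HS + LPS against HS, where Hist1h2bg fell least. Of all genes 31.3% and 41.8% fell in these comparisons. Of the 7 H2A genes with an octamer 4 and 6 fell and 0 rose, with log2 differences of -1.19 to 0.36 and -2.06 to -0.12. Hist1h2aa, Hist1h2ac and Hist1h2ae among them were not well above background on every array. Whether the octamer goes with lower values was not tested. Of the 3 H2B genes with a matched promoter and no octamer, 0 fell and 1 rose in each comparison, where 26.2% and 30.5% of all genes rose. Hist1h2bp and Hist1h2bq of these 3 were not well above background on every array. The rise was that of Hist1h2bq, which passed the filter only through the groups with added salt. Of the 6 H2A genes without an octamer, 0 and 2 fell and 0 rose. All of those except Hist2h2ab are read by the near-identical probes, as are Hist1h2ah and Hist2h2ac, which have an octamer. The Hist1h2bg window lies in the stretch it shares with Hist1h2ae, which is transcribed the other way, and the promoters of Hist1h2ba and Hist1h2aa overlap likewise.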

How the data were processed

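RNA of 12 RAW264.7 samples was hybridised to 1-colour arrays (design 028005). Per the file headers, Agilent Feature Extraction 10.7.3.1 gave the scanner values, which are linear intensity after background subtraction and detrending, and probe positions are on mm9. The deposited value table also holds intensity, with a median of 28.8 on every array and ranks like the scanner values (Spearman 0.99996 or more). How it was normalized is not given in the sources used here.

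Each processed signal was divided by its array's 75th percentile over 59305 non-control spots and log2 transformed. Outlier-flagged spots were left out, no spot was saturated, and the brightest kept probe stood for a gene. Other probes are given for some genes where they differ in call or size. A fold is "at least" a value when one group was not well above background on any of its arrays. Linear models were fitted with limma 3.58.1 in R 4.3.3 to all 12 arrays (8 residual degrees of freedom) for 13849 genes, with 2-sided moderated tests and Benjamini-Hochberg adjustment over all genes of a comparison, and likewise for 18834 single probes. Calls used a threshold of 0.05 on the adjusted p. On simulated data, 71% of log2 changes of 0.5 and 88% of changes of 1 were recovered for HS against NS, with 7 false calls among the genes left unchanged. Far fewer genes were changed there than were called in the data, so these shares may not hold for the data. The number of arrays limits the precision.

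Values on every array are given for members with the largest called differences (up to 3 per class, direction and comparison) and for a set of index members. For H2afj they are those of its second probe, and for H2afb2-ps in NS + LPS a range is given. Hist1h4i, the single probes and the sorting by sequence or length were chosen after the values were seen. Genes outside the members come from 3 lists, by size of difference, with Ccna2, Cdkn1a and Cdc6 shown first. The members, lists and tests were chosen with earlier results of these data known. Probe sequences came from the scanner files and promoters from RefSeq. Python 3.11.15, pandas 2.3.3 and matplotlib 3.10.9 were used for sequences and figures, and tables were handled with data.table, version 1.17.8. Alternatives were normexp background correction (offset 50), quantile and cyclic loess normalization, the deposited table, other filters, other choices of probe, only the groups compared, blocks for replicate number and slide, and leaving out each array.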

Additional observations from a re-analysis of the deposited data

Results flagged for a closer look

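For 15 of the members named by rule, the salt difference with LPS and that without LPS differed by a test of the difference itself (limma interaction, adjusted p below 0.05). LPS-treated salt arrays form a slide of their own, so slide and scan day cannot be told apart from this difference. The largest negative values were -1.50 for Hist1h1a (salt difference -1.99 with LPS and -0.49 without), -1.28 for Hist1h1b (-1.17 and 0.11), -1.15 for the stem-loop probe of Hist2h2bb (-1.31 and -0.17) and -0.96 for Hist1h3a (-1.32 and -0.36). Hist4h4 had -0.83, H2afx -0.69, Hist1h3d -0.44, H2afy -0.41 (0.048 with its dimmest probe), H3f3a -0.25 and H3f3b -0.19.

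The positive values among these 15 were 1.26 for Hist1h2bq (fitted differences of 2.62 with LPS and 1.35 without, both against groups not well above background), 1.17 for Hist1h2bc (0.73 and -0.44), 1.11 for Hist2h3c2 (0.93 and -0.18), 0.59 for Hist1h1c (-0.07 and -0.66) and 0.29 for Hist2h2be (-0.09 and -0.38). Those of Hist1h2bq and Hist2h2be were not called when any 1 of 8 and 9 arrays was left out (0.88 to 1.35 and 0.23 to 0.29), nor that of H3f3b for 7 arrays (-0.20 to -0.16). Hist1h4i, named after its values were seen, also had a called value of 0.51 (0.52 and 0.01), and its other probes gave 0.37 (adjusted p = 0.0258 over all probes) and -0.30 (adjusted p = 0.0798). The value of H3f3a was not called under quantile normalization (-0.13).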

How the results depend on the processing

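For replication-dependent genes in HS against NS, 5 were called with no filter and 5 to 11 with 1 array left out. For variants there, 1 was called with only the groups compared, with slide as a block and on the shared slide alone, 4 with the dimmest kept probe (chosen after the data were seen), and 1 to 4 with 1 array left out. Other counts stayed within 1.5 times under each alternative run. With 1 array left out, replication-dependent and variant genes gave 27 to 30 and 6 to 8 for HS + LPS against NS + LPS, 29 to 31 and 8 to 10 for NS + LPS against NS, 34 to 38 and 9 to 10 for HS + LPS against HS and 25 to 33 and 3 to 6 for the interaction. Counting the near-identical H2A probes once (chosen after the data were seen) gave 28, 31, 34 and 27 in these comparisons. Among single genes, 10 of 1570 values outside leave-one-out changed sign. They were 0.042 for H2afb2-ps in HS + LPS against HS, 0.058 for Hist1h2aa and 0.028 for Hist1h2ae in HS + LPS against NS + LPS with normexp. With the dimmest probe they were 0.048 for H2afy (interaction), -0.15 for H3f3b in HS + LPS against HS (-0.046 with the mean of probes) and 0.75, 0.15, 1.16 and 1.01 for Hist2h2bb in HS + LPS against NS + LPS, NS + LPS against NS, HS + LPS against HS and the interaction. Probe position differs there, and for the normexp values the cause was not tested. In HS + LPS against HS 42.2% of all calls were higher, and 54.4% under cyclic loess. Replicate numbers did not pair arrays, since deviations of same-numbered arrays correlated between -0.20 and 0.12, over 0.1 in 2 of 18 pairs. The replicate block gave 6 replication-dependent calls in HS against NS and 28, 29, 34 and 25 in the comparisons above. Dim arrays in HS + LPS limit members near background (Hist1h2aa, Hist1h2ac, Hist1h2ae and H2afb2-ps).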

Other observations

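Of 8 further histone probes outside the symbols used above, 4 passed the filter. A probe annotated to an H4d transcript under an Ensembl name averaged a relative signal of 263 in HS + LPS, 379 in NS + LPS, 493 in HS and 483 in NS, with a fall of 0.53 for salt with LPS (adjusted p = 0.000603, limma over 27003 probes). One annotated to H2ap averaged 455 in HS + LPS, 506 in NS + LPS, 606 in HS and 573 in NS, with a log2 difference of -0.17 (adjusted p = 0.257). LOC101056659, predicted to be like the replacement H3, averaged 2.16 in HS + LPS, 2.92 in NS + LPS, 3.40 in HS and 3.55 in NS and fell by 0.43 for salt with LPS (adjusted p = 0.000191). H2bfm averaged 0.0727 in HS + LPS, 0.133 in NS + LPS, 0.0851 in HS and 0.158 in NS, with falls of 0.92 for salt with LPS (adjusted p = 0.0145) and 0.85 for salt alone (adjusted p = 0.0338).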
